A study of Scophthalmus maximus with 8 samples.

Results

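The chromatin of turbot (*Scophthalmus maximus*) after metamorphosis, at 37dph (days post hatching), was set against the chromatin before it, at 15dph. The study profiled 8 samples by ATAC-seq at 4 stages with 2 biological replicates each, 3dpf (days post fertilization), 15dph, 23dph and 37dph. In ATAC-seq the Tn5 transposase cuts DNA where nucleosomes leave it free, so a pile of cuts, called a peak, marks accessible DNA. The 37dph and the 15dph samples were bodies from which the part behind the cloaca had been cut away. No treatment or genotype was labelled in either group, and the 23dph samples were dissected in the same way. Whole animals were used at 3dpf. Tissues were dissociated with collagenase for longer at each later stage, so stage and incubation time cannot be told apart. Each list of reproducible peaks came from both replicates of a stage together. All comparisons therefore lack an error between replicates and carry no p-value between stages. The intervals given are 95% Wilson intervals, which cover counting error only.

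The members are every peak of the 37dph list (46248) and of the 15dph list (57611), 103859 of the 246426 peaks in the 4 lists. They were defined by overlap alone. A peak was kept where it shared at least 1 bp with a peak of the other stage. A 37dph peak without a 15dph partner was called gained, and a 15dph peak without a 37dph partner was called lost. The 23dph list, which marks the climax of metamorphosis, took no part in the linking and was looked up afterwards. The name of that list carries another day number, and the sample labels attach it to 23dph. Gained and lost refer to reproducible peaks, and a site with no peak may still be accessible below the limit of the lists.

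Turbot larvae swim upright in the water column, and metamorphosis fits them for lying on one flank at the bottom. One eye crosses the head, pigment settles mainly on the upper flank, and muscle, skull, gut and blood are remodelled. Thyroid hormone drives the change, acting through nuclear receptors that bind DNA and recruit factors that open or close chromatin. Accessible sites are mostly promoters, at the starts of genes, and enhancers, which can lie far from the gene they act on. In samples of mixed tissues, a peak can vanish because cells close the site or because the cells that used it became rarer, and these cannot be told apart. Positions are given on the assembly ASM1334776v1. Genes around the peaks were not analysed here, because the gene table at hand was built on another assembly, and no sequence is shown for the same reason.

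Most of the accessible sites found after metamorphosis were already present before it. Of the 37dph peaks, 37047 (80.1%, 79.7 to 80.5) were kept and 9201 (19.9%, 19.5 to 20.3) were gained. Of the 15dph peaks, 35725 (62.0%, 61.6 to 62.4) were kept and 21886 (38.0%, 37.6 to 38.4) were lost. Gained peaks covered 2.005 Mb, or 18.1% of the accessible length at 37dph, and lost peaks covered 6.47 Mb, or 37.2% of that at 15dph. The lists differ in length, and the longer list must leave more peaks without a partner. With the 46248 strongest peaks of each stage, 11857 peaks (25.6%) were gained and 13218 (28.6%) were lost. Peaks thus changed in both directions, and the number of losses moved by more than 1.5 times with the list length. When the strongest 50% of a stage was judged against full lists, 3.37% of 37dph peaks were gained and 12.9% of 15dph peaks were lost. No spread between replicates was available to judge the size of this turnover.

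**Figure D1:**
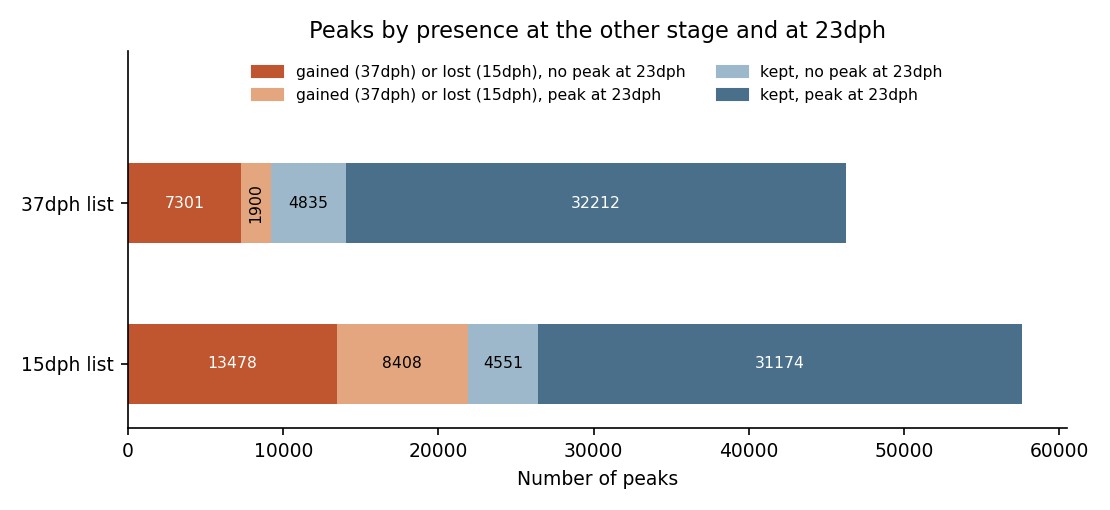
Horizontal bars show the number of peaks in the 37dph list (top) and in the 15dph list (bottom), split by whether the peak had a partner at the other stage and a peak at 23dph. Gained peaks were mostly without a 23dph peak (7301 against 1900 with one), and lost peaks fell into larger groups of both kinds (13478 without and 8408 with one).

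Gained and lost peaks were the weak peaks of their lists. Strength was read from the −log10 p that the authors' peak caller gave each peak, and it was used only to rank peaks within a list, where 100 is the strongest. Whether that value and the fold enrichment come from pooled reads or from 1 replicate is not given in the sources used here. The median rank was 18.6 for gained peaks against 59.2 for kept peaks of 37dph, and 25.4 for lost peaks against 67.1 for kept peaks of 15dph. The fold enrichment over local background had a median of 3.72 (quartiles 3.42 and 4.17) in gained peaks and 5.10 (4.23 and 6.25) in kept peaks of 37dph. At 15dph it was 3.65 (3.26 and 4.16) in lost peaks and 5.07 (4.14 and 6.30) in kept ones. A global IDR (irreproducible discovery rate, the estimated share of irreproducible peaks at that rank or better) of at most 0.01 was met by 25.9% of gained peaks and 78.0% of kept peaks at 37dph. At 15dph it was met by 36.8% of lost peaks and 85.7% of kept ones. In the strongest 10% of the lists only 7 peaks were gained and 31 were lost.

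To compare peaks of equal strength within a list, each list was split by −log10 p into 5 classes of equal size, class 1 the weakest and class 5 the strongest. The gained share of the 37dph list was 52.8%, 30.1%, 13.0%, 3.27% and 0.346% from class 1 to class 5. The lost share of the 15dph list was 76.2%, 59.6%, 37.2%, 14.9% and 2.07%. In every class the lost share was higher than the gained share. The classes are ranks within lists of different length, so a class need not hold the same strength in both. The longer 15dph list also leaves more peaks without a partner, and the classes were not compared at equal list lengths.

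Timing was read from the 23dph list. A gained peak with a 23dph peak under it was counted as open by the climax, and one without as gained after it. Of the gained peaks, 1900 (20.6%, 19.8 to 21.5) had a 23dph peak and 7301 (79.4%, 78.5 to 80.2) had none. Among kept peaks of 37dph, 86.9% (86.6 to 87.3) had a 23dph peak. By this rule most gains were dated to the interval between climax and juvenile. Of the gained peaks, 4880 were in class 1, where kept peaks also often lacked a 23dph peak. A missing 23dph peak is thus an uncertain date for weak peaks. The share of gained peaks with a 23dph peak was higher at greater strength, 15.1% (14.2 to 16.2) in class 1, 32.0% (29.4 to 34.7) in class 3 and 68.8% (51.4 to 82.0) in class 5, which held 32 gained peaks. Kept peaks of 37dph showed the same trend at a higher level, with 64.7% in class 1, 85.7% in class 3 and 99.2% in class 5.

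In the full lists, lost peaks were divided more evenly between both intervals than gained ones. A 23dph peak was missing under 13478 of them (61.6%, 60.9 to 62.2), which were lost by the climax. It was present under 8408 (38.4%, 37.8 to 39.1), which were lost after it. Among kept peaks of 15dph, 12.7% (12.4 to 13.1) had no 23dph peak. The dates varied with strength. The share lost by the climax was 80.9% (80.0 to 81.7) in class 1, 63.2% in class 2, 40.7% in class 3, 16.7% in class 4 and 3.78% (2.002 to 7.03) in class 5. When the strongest 50% of the 15dph peaks were judged against full lists, 892 of 3729 losses (23.9%, 22.6 to 25.3) fell before the climax. In the strongest 50% of the 37dph peaks, 302 of 780 gains (38.7%, 35.4 to 42.2) did. Among these stronger peaks the gains were thus the more evenly divided. Kept peaks of 15dph also lacked a 23dph peak less often at greater strength. A 23dph peak lay under 44.1% of them in class 1, 64.9% in class 2, 84.9% in class 3, 97.2% in class 4 and 99.9% in class 5. Weak peaks were thus often not called at 23dph whether or not they were called at 37dph.

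Of the peaks lost after the climax, 8072 were linked 1 to 1 with a 23dph peak. Their median rank was 31.3 at 23dph against 40.4 at 15dph, with 64.8% ranking lower at 23dph. Their median width was 256 bp at 23dph against 282 bp at 15dph, and 63.5% were narrower at 23dph. Kept peaks shifted about as often, since 65.1% of 29838 pairs ranked lower at 23dph and 65.5% were narrower there, with median widths of 235 bp at 23dph and 252 bp at 15dph. The median rank of these kept pairs was 65.6 at 23dph against 71.2 at 15dph. The median of the rank differences, 23dph minus 15dph, was -7.39 in lost and -3.36 in kept pairs. The ranks come from lists of different lengths and are given side by side only. For the 1795 gained peaks linked 1 to 1 with a 23dph peak, the median rank was 27.0 at 37dph against 22.9 at 23dph. For 30433 such pairs of kept 37dph peaks it was 64.3 at 37dph and 65.6 at 23dph. The 23dph rank was the lower one in 56.0% of the gained and 47.7% of the kept pairs.

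A smaller group of kept peaks was called at 37dph and at 15dph but not in between. Of the 37dph kept peaks 4835 (13.1%, 12.7 to 13.4) had no 23dph peak, and of the 15dph kept peaks 4551. The 4835 and 4551 peaks were weak, with median ranks of 30.8 at 37dph and 29.0 at 15dph. They were also narrow, with median widths of 175 bp and 195 bp.

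Peak width separated lost from kept peaks. Width is the span over which the peak caller found enrichment. Among lost peaks and among kept peaks of 15dph, taken separately, its median was larger in each stronger class. In the full lists the contrast was small, with a median of 265 bp (quartiles 200 and 357) for lost peaks and 249 bp (196 and 366) for kept peaks of 15dph. At equal strength it was large. In class 3 the median was 289 bp (219 to 382) for lost peaks and 210 bp (180 to 310) for kept peaks, with a median fold enrichment of 4.36 in lost and 4.39 in kept peaks. The difference, lost minus kept, was 62 bp in class 1, 68 bp in class 2, 79 bp in class 3, 77 bp in class 4 and 8 bp in class 5. With summits within 100 bp as the link, the class 3 difference was 91 bp, and with strength ranked by fold enrichment it was 68.5 bp.

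Gained peaks did not show this pattern. Their median width was 182 bp (quartiles 152 and 261), against 208 bp (174 and 281) for kept peaks of 37dph. In class 3 the medians were 178 bp for gained and 185 bp for kept peaks. The difference, gained minus kept, lay between -3 and -9 bp in the 5 classes, and in class 3 it was 7 bp with summits within 100 bp as the link. Gained peaks were therefore about as wide as the kept 37dph peaks of the same rank.

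**Figure D2:**
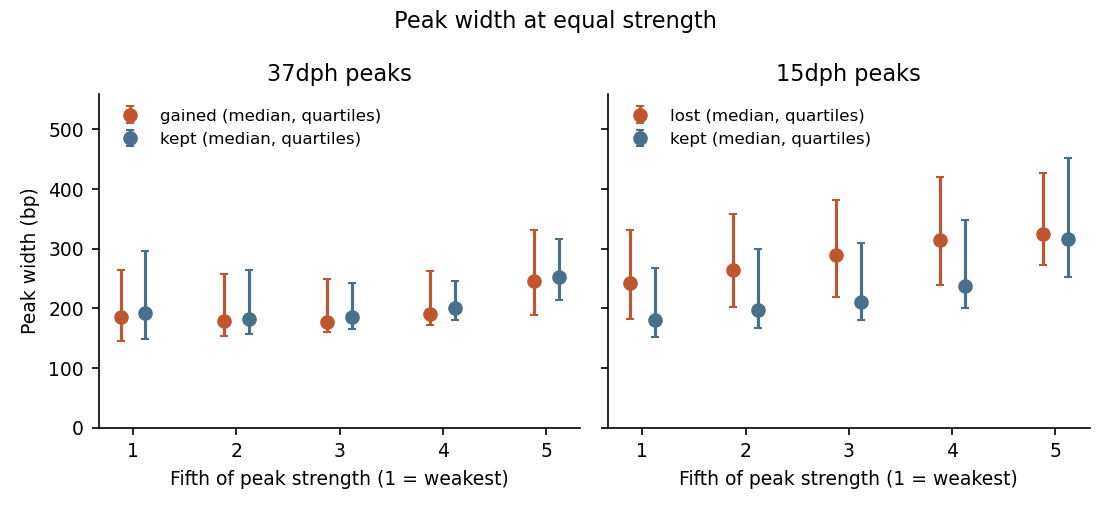
Points are median peak widths in bp and bars the quartiles, by class of strength from 1 (weakest) to 5 (strongest), for gained and kept peaks of 37dph (left) and for lost and kept peaks of 15dph (right). The gained and kept points nearly coincide, while lost peaks lie above kept peaks in classes 1 to 4, for example 289 against 210 bp in class 3.

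In the whole 15dph list the lost share was highest, 49.3%, in peaks up to 150 bp wide and lowest, 23.9%, above 600 bp. Between these it was 33.1% above 150 and up to 200 bp, and 46.3% above 300 and up to 400 bp. At equal strength the lost share followed another order. Within class 3 it was 14.1% of 163 peaks up to 150 bp wide, 19.5% of 3710 peaks above that and up to 200 bp, and 35.9% of 2426 peaks above 200 and up to 250 bp. It reached 51.5% of 1322 peaks above 250 and up to 300 bp and 54.3% of 1973 peaks above 300 and up to 400 bp. Beyond that it was 49.0% above 400 and up to 600 bp and 42.8% above 600 bp. At this strength the compact peaks of the larva were the ones most often retained.

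Most kept peaks were narrower at 37dph than at 15dph. A total of 34017 kept pairs were linked 1 to 1, which is 91.8% of the kept 37dph peaks and 95.2% of the kept 15dph peaks. Their median width was 207 bp at 37dph and 244 bp at 15dph. The 37dph peak was narrower in 76.2% (75.8 to 76.7) of the pairs and wider in 22.8% (22.3 to 23.2). The median of the differences, 37dph minus 15dph, was -25 bp, with quartiles at -61 and -2 bp. The 37dph peak lay wholly inside its 15dph partner in 17697 pairs (52.0%), and the reverse held in 3617 (10.6%). The median difference was 0 bp in strength class 1 of the 15dph peaks, -18 bp in class 3 and -37 bp in class 5. By 15dph width it was 12 bp in 1197 pairs up to 150 bp wide. In 1462 pairs above 600 and up to 1000 bp it was -276 bp. The 15dph width is itself part of the difference, so the split by width is a description only. More reads were mapped in each 37dph library than in each 15dph library, by the study's sequencing summary, and the part of depth in the narrowing was not tested.

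The pairs that changed most show both directions. On chromosome 22, the 37dph peak measured 263 bp (9736441 to 9736703), against 1633 bp for its 15dph partner (9736126 to 9737758). Fold enrichment there was 4.88 at 37dph and 5.65 at 15dph. The next was on chromosome 11, where the width was 225 bp (19078988 to 19079212) after metamorphosis and 1442 bp (19077784 to 19079225) before it. On chromosome 3 a strong site kept its fold enrichment, 7.35 at 37dph and 7.29 at 15dph, while its width was 296 bp (17768171 to 17768466) against 1449 bp (17768168 to 17769616). In the other direction, the largest widening was on chromosome 5. The width there was 813 bp (24658267 to 24659079) after metamorphosis and 241 bp (24658918 to 24659158) before it. The 15dph peak was weak (fold 2.76, rank 4.83) and ran past the end of its 37dph partner (fold 3.50). Sites on chromosomes 16 and 2 measured 845 and 799 bp at 37dph, against 292 and 261 bp at 15dph. Fold enrichment on chromosome 16 was 4.32 at 37dph and 4.31 at 15dph (15dph rank 64.9). On chromosome 2 it was 3.94 and 3.06, and the 15dph peak was again weak (rank 3.08). A narrowing by more than 200 bp was seen in 2538 pairs and a widening by more than 200 bp in 188.

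Some broad larval peaks overlapped several peaks of 37dph. At 15dph, 1397 peaks overlapped 2 or more 37dph peaks, 1302 of them 2, 93 of them 3 and 2 of them 4. These were wide and strong, with a median width of 590 bp and a median rank of 83.0. At 37dph only 172 peaks overlapped 2 peaks of 15dph, and none overlapped more. Peaks were narrower in the 37dph list as a whole, with a median of 204 bp against 255 bp at 15dph. The part of this in the counts was not tested.

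The embryo told gained and lost peaks apart. The 3dpf list was not used for the classes, and it held 94714 peaks. A 3dpf peak lay under 2967 gained peaks (32.2%, 31.3 to 33.2), against 89.0% (88.7 to 89.3) of kept 37dph peaks. It lay under 14435 lost peaks (66.0%, 65.3 to 66.6), against 88.9% (88.6 to 89.3) of kept 15dph peaks. At equal strength the contrast for lost peaks was smaller. In class 3 a 3dpf peak was present under 81.2% (80.0 to 82.3) of lost and 86.8% (86.0 to 87.5) of kept peaks, and in class 1 under 52.0% and 53.4%. For gained peaks it stayed wide, with 39.6% (36.9 to 42.4) of gained against 86.8% (86.1 to 87.6) of kept peaks in class 3, and 28.2% against 73.8% in class 1. In class 3 with summits within 100 bp as the link, the shares were 73.1% of lost and 81.9% of kept 15dph peaks. For 37dph they were 32.0% of gained and 82.3% of kept peaks. With 50% overlap of both peaks they were 74.8% and 81.6% at 15dph, and 29.9% and 79.5% at 37dph. Lost peaks were wider than kept ones in class 3, and the part of width in these shares was not tested. In class 3 lost sites were thus embryonic somewhat less often than retained ones, and gained sites much less often.

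**Figure D3:**
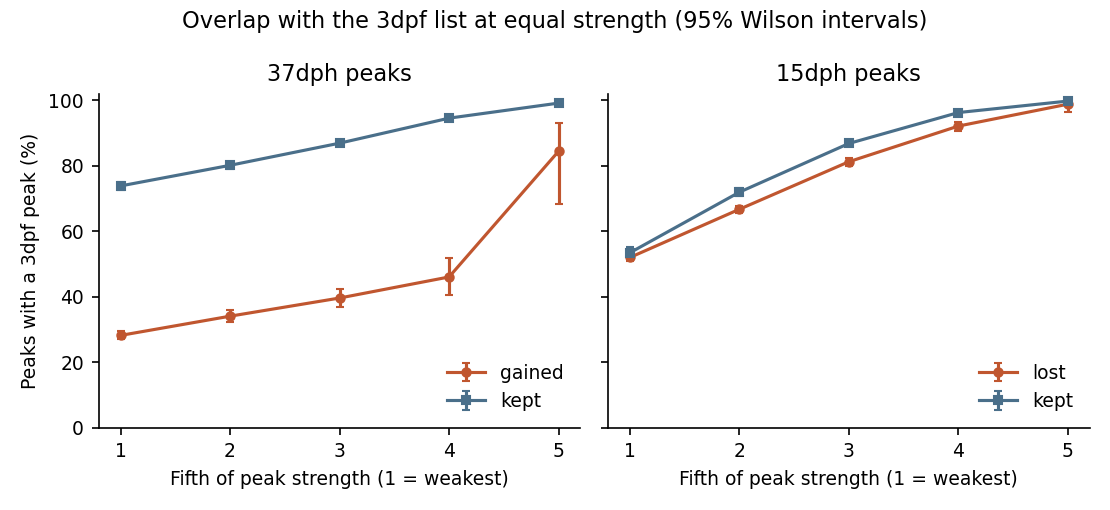
The share of peaks with a 3dpf peak (%, with 95% Wilson intervals) is plotted by class of strength, for gained and kept peaks of 37dph (left) and for lost and kept peaks of 15dph (right). The lost and kept lines run close together, whereas gained peaks lie far below kept ones in classes 1 to 4, for example 39.6% against 86.8% in class 3.

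A 3dpf peak lay under 53.2% (51.0 to 55.4) of those gained by the climax and under 26.8% (25.8 to 27.8) of those gained after it. Among lost peaks the shares were 78.6% (77.7 to 79.4) for those lost after the climax and 58.1% (57.3 to 58.9) for those lost by it. Strength moved with timing too, with median ranks of 26.4 for peaks gained by the climax and 16.7 for those gained after it, and of 40.0 for peaks lost after it and 18.8 for those lost by it, and its part in these shares was not tested. In total 1956 peaks were called at 3dpf and at 37dph but at neither stage between.

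The 3 strongest peaks gained by the climax and the 3 strongest gained after it lay on 6 chromosomes. Among the 3 gained by the climax, those on chromosomes 11 and 2 were faint at 23dph. The strongest was on chromosome 3 from 72142 to 72385 and ranked 47 of 46248, with a fold enrichment of 11.5 at 37dph. It was just as strong at 23dph (fold 11.9, rank 99.8) and present at 3dpf (fold 9.06, rank 89.1), and the nearest 15dph peak lay 17609 bp away. It was thus missing at 15dph alone. The peak on chromosome 11 from 7688364 to 7688644 had a fold enrichment of 6.29 at 37dph and 3.21 at 23dph. The peak on chromosome 2 from 14414072 to 14414537 had 7.29 at 37dph and 4.31 at 23dph, with none at 3dpf. Those gained after the climax were led by chromosome 7 from 4128636 to 4128841 (fold 8.62, rank 95.2), chromosome 12 from 15225208 to 15225459 (fold 7.05) and chromosome 14 from 1390803 to 1391049 (fold 6.34). They lay 259, 639 and 65 bp from the nearest 15dph peak, so these 3 gains sat beside sites already called at 15dph. The peak on chromosome 14 ranked 85.2, and a rule that also links gaps of up to 200 bp would count it as kept. The 3 peaks gained by the climax lay further away, at 17609, 940 and 2880 bp, so closeness to a 15dph peak was not shared by all 6.

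The 3 strongest peaks lost after the climax and the 3 strongest lost by it all had a 3dpf peak. The 3 lost after the climax were on chromosome 1 from 28791774 to 28792055, chromosome 4 from 27579070 to 27579464 and chromosome 16 from 5691375 to 5691722. Their fold enrichment at 3dpf, 15dph and 23dph was 12.05, 8.13 and 7.24 on chromosome 1. It was 11.9, 8.32 and 6.82 on chromosome 4, and 11.5, 8.88 and 7.598 on chromosome 16. The order was the same at all 3 sites, although fold enrichment is not scaled between lists. Those lost by the climax were weaker at 15dph. They were on chromosome 21 from 617950 to 618406 (fold 7.002, rank 84.5), chromosome 12 from 8298341 to 8298642 (fold 6.80) and chromosome 9 from 5053109 to 5053532 (fold 5.80). Their fold enrichment at 3dpf was 9.88, 5.9997 and 4.35, with ranks of 92.8, 58.1 and 36.9 in the 3dpf list, so the last was a weak embryonic peak. All 31 lost peaks in the strongest 10% of the 15dph list had a peak both at 3dpf and at 23dph. Among kept 15dph peaks of class 5 the shares were nearly as high, 99.7% with a 3dpf and 99.9% with a 23dph peak.

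In the full lists, changed peaks stood further from their neighbours than kept ones. The median gap to the nearest peak of the same list was 2566.5 bp for gained and 1519 bp for kept peaks of 37dph, and 2524 bp for lost and 1377 bp for kept peaks of 15dph. A neighbour within 500 bp was found for 22.0% (21.1 to 22.8) of gained and 32.4% (31.9 to 32.9) of kept 37dph peaks. For lost and kept 15dph peaks the shares were 23.2% (22.6 to 23.7) and 32.4% (31.9 to 32.9). At equal strength only the contrast for losses remained in every class. In class 3 the gap was 2444 bp for lost and 1510 bp for kept peaks of 15dph, against 1733 bp for gained and 1778 bp for kept peaks of 37dph. Gained peaks still stood further from a neighbour than kept ones in class 1 (3079 against 2356.5 bp) and class 2 (2376 against 2116 bp). Classes 1 and 2 held 4880 and 2780 of the 9201 gained peaks. In class 4 the gaps were 1443 and 1464 bp. In class 5, with 32 gained peaks, these were nearer to a neighbour (361.5 bp) than kept ones (835.5 bp). Among peaks whose global IDR did not exceed 0.01, the gap of gained peaks (2562 bp) was close to that of kept ones (2361 bp), while lost peaks (3708 bp) still stood further apart than kept ones (2080 bp).

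Gained peaks were closer to the other stage's peaks than lost ones. The nearest 15dph peak was at a median of 2228 bp from a gained peak, and the nearest 37dph peak at 4359 bp from a lost peak. The 15dph list is longer, which by itself shortens the first distance. Within 200 bp of a peak of the other stage lay 1149 gained peaks (12.5%, 11.8 to 13.2) and 1738 lost peaks (7.94%, 7.59 to 8.31), which a looser link would count as kept. More than 20000 bp away lay 230 gained peaks (2.50%) and 2712 lost peaks (12.4%).

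Loss was heaviest where larval peaks were sparse. Peaks were split into 5 groups of equal size by how many peaks of their own list had midpoints within 50000 bp. In the sparsest group, with at most 9 such neighbours, 52.7% (51.8 to 53.6) of 15dph peaks were lost, and in the densest, with 17 to 31, 31.9% (31.1 to 32.8). Sparse peaks were also weaker, with a median rank of 41.7 against 53.2 in the densest group. Within strength class 3 the lost share was 51.0% (48.9 to 53.1) in the sparsest and 32.7% (30.8 to 34.6) in the densest group. Over all 37dph peaks the gained share was 22.2% (21.3 to 23.0) in the sparsest and 20.3% (19.5 to 21.1) in the densest group. Within class 3 it ran the other way, with 8.31% (7.12 to 9.69) in the sparsest and 18.2% (16.5 to 20.02) in the densest group.

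Lost peaks occurred next to each other more often than their share of the list. After a lost peak, the next 15dph peak along the chromosome was lost in 48.4% (47.7 to 49.1) of cases, and after a kept peak in 31.6% (31.1 to 32.1). After a gained peak, the next 37dph peak was gained in 23.9% (23.1 to 24.8), and after a kept peak in 18.9% (18.5 to 19.3). The difference for losses held among next peaks of equal strength, with 46.4% after a lost and 31.7% after a kept peak where the next peak was in class 3. For gains the values there were 14.8% and 12.6%.

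The reach of this clustering differed between losses and gains. For losses the difference was 17.5 percentage points at gaps of up to 500 bp, 14.6 above 5000 and up to 10000 bp, 14.6 above 20000 and up to 50000 bp and 7.10 beyond 50000 bp. For gains it was 17.0 points up to 500 bp, 8.53 above 500 and up to 1000 bp and 0.269 at gaps above 2000 and up to 5000 bp. The difference for losses thus held at gaps of up to 50000 bp. For gains it lay mainly within 1000 bp, with differences of 0.269 to 4.61 points at longer gaps. The values by gap were not split by strength or by local peak density, and the part of either was not tested. When 2 successive peaks were lost, the second had a 23dph peak in 37.5% (36.0 to 39.0) of cases after a first with one and in 35.5% (34.4 to 36.7) after a first without. For successive gained peaks the values were 25.6% (21.7 to 29.9) and 18.4% (16.7 to 20.3).

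**Figure D4:**
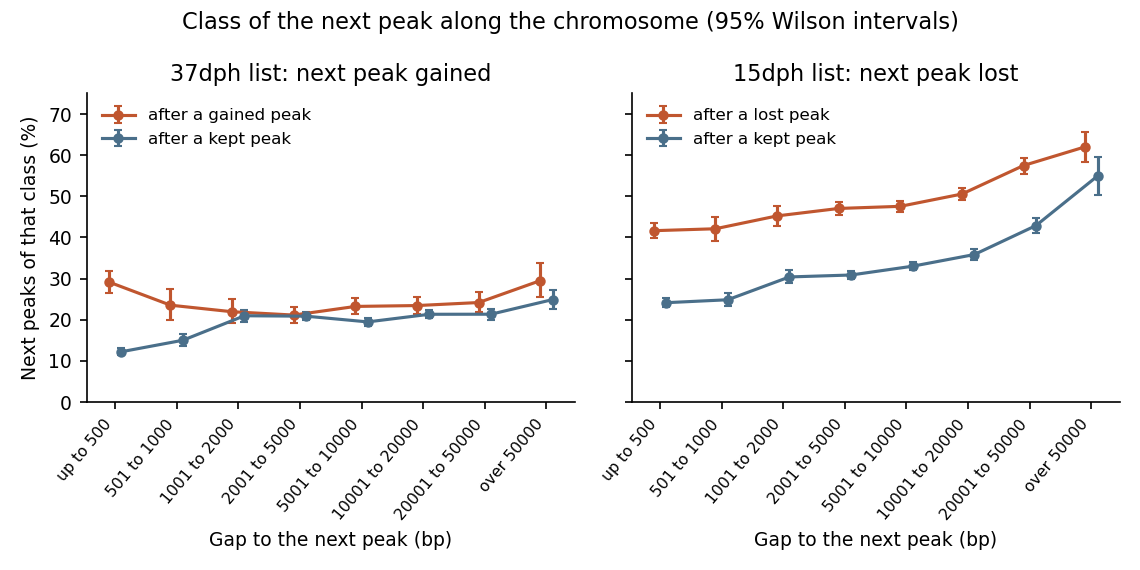
The share of next peaks that were gained (37dph list, left) or lost (15dph list, right) is plotted in % with 95% Wilson intervals against the gap to the next peak in bp, after a changed and after a kept peak. The lines for losses stay apart from the shortest gaps (41.7% against 24.1%) to 50000 bp, and those for gains are apart mainly up to 1000 bp.

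Runs of successive lost peaks were long. Of the lost peaks, 15475 (70.7%, 70.1 to 71.3) stood in runs of 2 or more, and 4910 (22.4%) in the 743 runs of 5 or more. Among gained peaks 3841 (41.7%, 40.7 to 42.8) stood in runs of 2 or more and 191 (2.08%) in the 35 runs of 5 or more. A higher share of lost peaks in a list lengthens runs by itself, so these numbers describe each list and are not a comparison. The longest run held 25 lost peaks on chromosome 13 from 20679359 to 21595271, a stretch of 916 kb in which 3 peaks of 37dph lay. Of these 25 peaks, 21 had no 23dph peak and 12 had a 3dpf peak. Among all lost peaks the shares were 61.6% without a 23dph peak and 66.0% with a 3dpf peak. Another run of 24 lost peaks lay on the same chromosome from 8105641 to 8456367, with 22 peaks missing at 23dph. A run of 19 lost peaks lay on chromosome 22 from 13311193 to 13694405, with 11 peaks missing at 23dph. Both of these further runs were chosen after their values were seen. The longest run of gained peaks held 8, on chromosome 20 from 18078891 to 18205157. Of these, 6 had no 23dph peak, against 79.4% of all gained peaks.

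Chromosomes differed moderately. The gained share ranged from 17.4% (15.8 to 19.0) on chromosome 5 to 23.5% (21.7 to 25.3) on chromosome 2, against 19.9% in the whole list. The lost share ranged from 30.7% (28.9 to 32.6) on chromosome 19 to 43.8% (42.0 to 45.6) on chromosome 5, against 38.0%. Chromosome 5 thus had the highest lost and the lowest gained share, although chromosome 4 gained nearly the same share (17.4%) with 37.2% lost. Gained and lost shares had a Pearson correlation of -0.172 (Spearman -0.0977) over the 22 chromosomes. The 37dph list of chromosome 5 was 0.714 times as long as its 15dph list. On chromosome 19 this ratio was 0.891. Chromosome 19 also held the most peaks per Mb, 106 at 37dph and 119 at 15dph, and chromosome 13 the fewest, 67.3 and 90.3. Over the 22 chromosomes, peak density at 15dph and the lost share had a Pearson correlation of -0.733 (Spearman -0.669), a description only, since chromosomes share the same libraries. For the gained share and 37dph density the values were 0.214 and 0.0683. With chromosome length they were -0.462 and -0.512 for the gained share, and 0.254 and 0.0582 for the lost share. Between 58.3% and 65.0% of the losses on a chromosome, and between 16.5% and 23.8% of the gains, were dated before the climax.

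**Figure D5:**
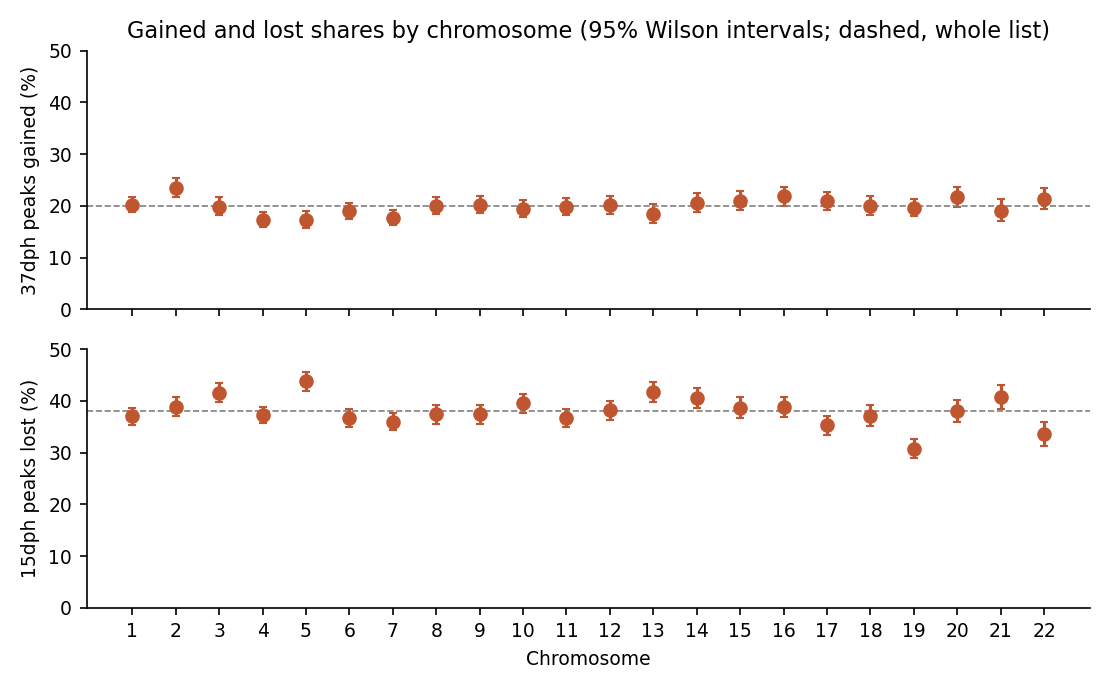
Points are the share of 37dph peaks gained (top) and of 15dph peaks lost (bottom) on each of the 22 chromosomes, in %, with 95% Wilson intervals and the value of the whole list as a dashed line. Losses were lowest on chromosome 19 (30.7%) and highest on chromosome 5 (43.8%), and gains were highest on chromosome 2 (23.5%).

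At finer scale, windows of 1 Mb with at least 20 peaks spread widely for losses. Over 542 windows the lost share had a median of 38.8% and 5th and 95th percentiles of 25.7% and 55.8%. The highest values were on chromosome 13 from 21000001 to 22000000, where 22 of 24 peaks (91.7%, 74.2 to 97.7) were lost, and on chromosome 12 from 23000001 to 24000000, where 22 of 26 (84.6%, 66.5 to 93.8) were lost. The first of these holds part of the longest run. In each of both windows, 15 of the 22 losses had no 23dph peak, against 61.6% of all losses. Over 536 windows the gained share had a median of 19.8% and percentiles of 11.1% and 28.6%. It was highest on chromosome 8 from 2000001 to 3000000 with 20 of 52 peaks (38.5%, 26.5 to 52.0) and on chromosome 15 from 22000001 to 23000000 with 34 of 89 (38.2%, 28.8 to 48.6). Of these 20 and 34 gains, 16 and 31 had no 23dph peak, against 79.4% of all gains.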

How the data were processed

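By the study's methods, the authors aligned the ATAC-seq reads to ASM1334776v1 with Bowtie2, shifted read ends to where Tn5 had cut, retained short fragments free of nucleosomes, ran MACS2 on each replicate, and used IDR to keep peaks found in both replicates. The deposited lists, 1 per stage and assigned by the sample labels, hold peak start, end and summit, the authors' fold enrichment over local background, a −log10 p, an IDR score and the −log10 IDR. The highest global IDR was 0.0999995. The lists carry no read depth. The study's sequencing summary gives more mapped reads for each 37dph than for each 15dph library.

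Peaks were linked by an overlap of at least 1 bp, width was end minus start, and printed starts count from 1. Linking was tested on simulated lists. Named regions were the 3 strongest peaks of each gain and loss class, the longest runs, the 2 windows with the highest shares, and the 3 pairs that changed most in each direction. Members, classes and rules were chosen with earlier results of these data known. Alternatives concerned list length, IDR limit, link rule, unplaced sequences and cluster distance. Position relative to genes was not analysed here. The software was Python 3.11.15 with numpy (2.4.6), pandas (2.3.3), scipy (1.17.1) and, for plots, matplotlib (3.10.9).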

Additional observations from a re-analysis of the deposited data

How the results depend on the processing

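No paired analysis was possible because each stage has a single list made from both replicates, which also means that no replicate was left out. Read depth limits every count and width, and the lists carry no depth to correct for. The alternatives for position relative to genes were not run. Values counted as moved when they left the 95% interval, or for numbers of peaks 1.5 times, of the value reported, and the cause was not tested except where fewer or weaker peaks in a list fix it.

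With equal list lengths, 25.6% of 37dph peaks were gained, 24.3% of them by the climax, and 28.6% of 15dph peaks (13218) were lost, 50.1% of them by the climax. Median widths were then 180 bp for gained and 280 bp for lost peaks, the own gap of lost peaks was 3546.5 bp, shares in runs of 2 or more were 50.5% of gained and 59.4% of lost peaks, and the highest chromosomes were 30.2% gained (chromosome 2) and 33.5% lost (chromosome 5). With the strongest 50% of each list, 15.6% (3601) were gained, 17.8% by the climax, and 33.5% (9649) lost, 52.1% by the climax, with a median width of 284 bp for lost peaks. With the strongest 50% judged against full lists, 3.37% (780) were gained, 38.7% by the climax, and 12.9% (3729) lost, 23.9% by the climax. With a global IDR limit of 0.01, 15.1% (4731) were gained, 17.0% by the climax, and 33.2% (12824) lost, 58.4% by the climax. Widths were then 175 bp for gained and 285 bp for lost peaks, the own gap of lost peaks 3708 bp, runs held 30.0% of gained and 63.2% of lost peaks, and the highest chromosomes were 19.4% gained (chromosome 22) and 39.0% lost (chromosome 5).

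With 50% overlap of both peaks, 29.8% were gained, 28.2% by the climax, and 43.6% lost. With summits within 100 bp, 25.7% were gained, 22.2% by the climax, and 40.4% lost, 64.1% by the climax, and gained minus kept width in class 3 turned to 7 bp. With gaps of up to 200 bp also linked, 17.4% were gained, 21.6% by the climax, and 35.0% lost, 60.1% by the climax. Joining peaks of a class up to 2000, 5000 and 10000 bp apart, clusters held 14.5%, 25.1% and 40.3% of gained and 22.3%, 40.0% and 62.3% of lost peaks. Width at equal strength under other rankings and links, the 3dpf shares under other links, and clustering without chromosome 13 were added after seeing the data.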

Other observations

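Along the chromosomes, gains were more frequent near the ends. Splitting the way from the nearer end to the middle into 5 equal parts, the gained share of 37dph peaks was 22.3% (21.5 to 23.2), 20.7%, 19.9%, 18.5% and 18.5% (17.7 to 19.2) from the end inwards. The lost share of 15dph peaks did not follow this order, with 36.7% (35.7 to 37.6) next to the end, 40.9% (39.9 to 41.9) in the adjoining part and 35.9% (35.1 to 36.7) in the middle. These shares were not split by strength, and the part of strength in them was not tested. Chromosome ends were taken from the last peak in any of the 4 lists.

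Few peaks lay off the 22 numbered chromosomes, 17 at 37dph and 13 at 15dph. Of these, 12 were gained (70.6%, 46.9 to 86.7) and 8 were lost (61.5%, 35.5 to 82.3). The mitochondrial genome held 2 peaks at 37dph and 1 at 15dph. The widest peak of each list lay off the numbered chromosomes, with 3175 bp at 37dph and 3515 bp at 15dph. On the numbered chromosomes the widest peak was 1151 bp at 37dph and 1633 bp at 15dph.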
